A study of Mus musculus with 32 samples.

Results

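The genes described here are 38 mouse genes of the NRF2 pathway, of glutathione metabolism and of other antioxidant defences. They were chosen by gene symbol from the 55487 gene identifiers of a whole-liver RNA-seq table, and all 38 were found once and were abundant enough to be tested. NRF2, encoded by Nfe2l2, is a transcription factor that KEAP1 holds at low levels by marking it for degradation. Oxidants and electrophiles modify KEAP1, NRF2 then accumulates, and with small MAF proteins it binds antioxidant response elements near genes for quinone reduction, glutathione synthesis and conjugation, thioredoxin recycling and NADPH supply. The liver is a main site of glutathione synthesis and export and of conjugation of drugs and lipid peroxidation products.

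The study set mice of the genotype FAAH S268D beside wild type (WT) mice. FAAH is fatty acid amide hydrolase, a membrane enzyme that breaks down fatty acid amides such as anandamide and N-acyl taurines, and S268D names a change in it that puts aspartate in the place of a serine. Each genotype had a diet labelled NASH-AA and a diet labelled NASH, and the series' design text names the feeding as HFFC with or without ARA for 28 weeks, without spelling out the abbreviations. The 4 groups were FAAH S268D NASH-AA, FAAH S268D NASH, WT NASH-AA and WT NASH, with 8 libraries each. Age at the start, sex, strain background and a standard-diet group are not given in the labels, so every value comes from mice on one of these NASH diets. Whether each library stands for its own animal is not stated, and the p-values reflect only how far these libraries spread, which may be technical.

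Total counts ran from 14743252 to 30885136 in FAAH S268D NASH-AA, 3851626 to 26662783 in FAAH S268D NASH, 20974886 to 34370178 in WT NASH-AA and 20654110 to 24873204 in WT NASH. The lowest total belonged to FAAH S268D NASH replicate 1, and the next lowest was 14743252. Alb, which encodes serum albumin, measured 31335.7 to 67275.3 CPM (counts scaled to a library total of fixed size) over all libraries. The Y-linked gene Ddx3y was at 14.9 to 49.3 CPM and Xist at no more than 0.139 CPM in the 32 libraries. Gene counts cannot show an amino acid change, so the genotype labels were not checked by Faah, whose level was 163 to 227 CPM in the 16 FAAH S268D libraries and 132 to 187 CPM in the 16 WT libraries. In whole tissue, fewer cells of a type and less RNA per cell cannot be told apart. Libraries carry running numbers, and numbers 1 to 16 and 17 to 32 both held all 4 groups, though unevenly. FAAH S268D NASH had 5 libraries in 1 to 16 and 3 in 17 to 32, and WT NASH-AA had 3 and 5. The remaining groups had 4 in each. Within 1 to 16 the groups were mixed, but within 17 to 32 each group held an unbroken run of numbers. Running order and group therefore cannot be told apart in 17 to 32. The labels name no batch, and values within each range are given beside the pooled ones.

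On the scale of CPM per kilobase of exon, the medians over the 32 libraries were highest for the ferritin light chain gene Ftl1 (3567.7), the transferase gene Gstm1 (2205.6), the glutathione peroxidase gene Gpx1 (1234.3) and the catalase gene Cat (1177.0). Nfe2l2 itself stood at 22 and Keap1 at 14.9. The lowest medians were those of Nqo1 (7.65), Cbr3 (3.63), G6pdx (2.22) and the cystine carrier gene Slc7a11 (0.0234). Levels within a class differed widely, with Gstm1 at 2205.6 and its fellow transferase Gsta2 at 33.6. Of the 31-base words of Ftl1, 57.7% occur in other genes, mostly in Ftl1-ps1, so its level is uncertain. Slc7a11 was at 0 to 2.46 CPM on the unscaled level, and its differences rest on few counts.

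The first comparison asked how FAAH S268D livers differed from WT livers when both diets were averaged. Of the 38 members, 12 (31.6%) passed the threshold of a Benjamini-Hochberg adjusted p under 0.05 in limma-voom, against 17.2% of the 14903 genes tested. The 10 that were lower in FAAH S268D (26.3% of members, against 10.3% of all genes) were Hmox1, Nqo1, Srxn1, Cbr3, Osgin1, G6pdx, Gsr, Gpx4, Gsta1 and Mt2. The 2 that were higher (5.26%, against 6.9% of all genes) were Sod2 and Prdx6. The median log2 difference was -0.17 over the members, 28 of which were below 0, and 0.00 over all genes. Values written with ± in the text are log2 differences and their SE.

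**Figure D1:**
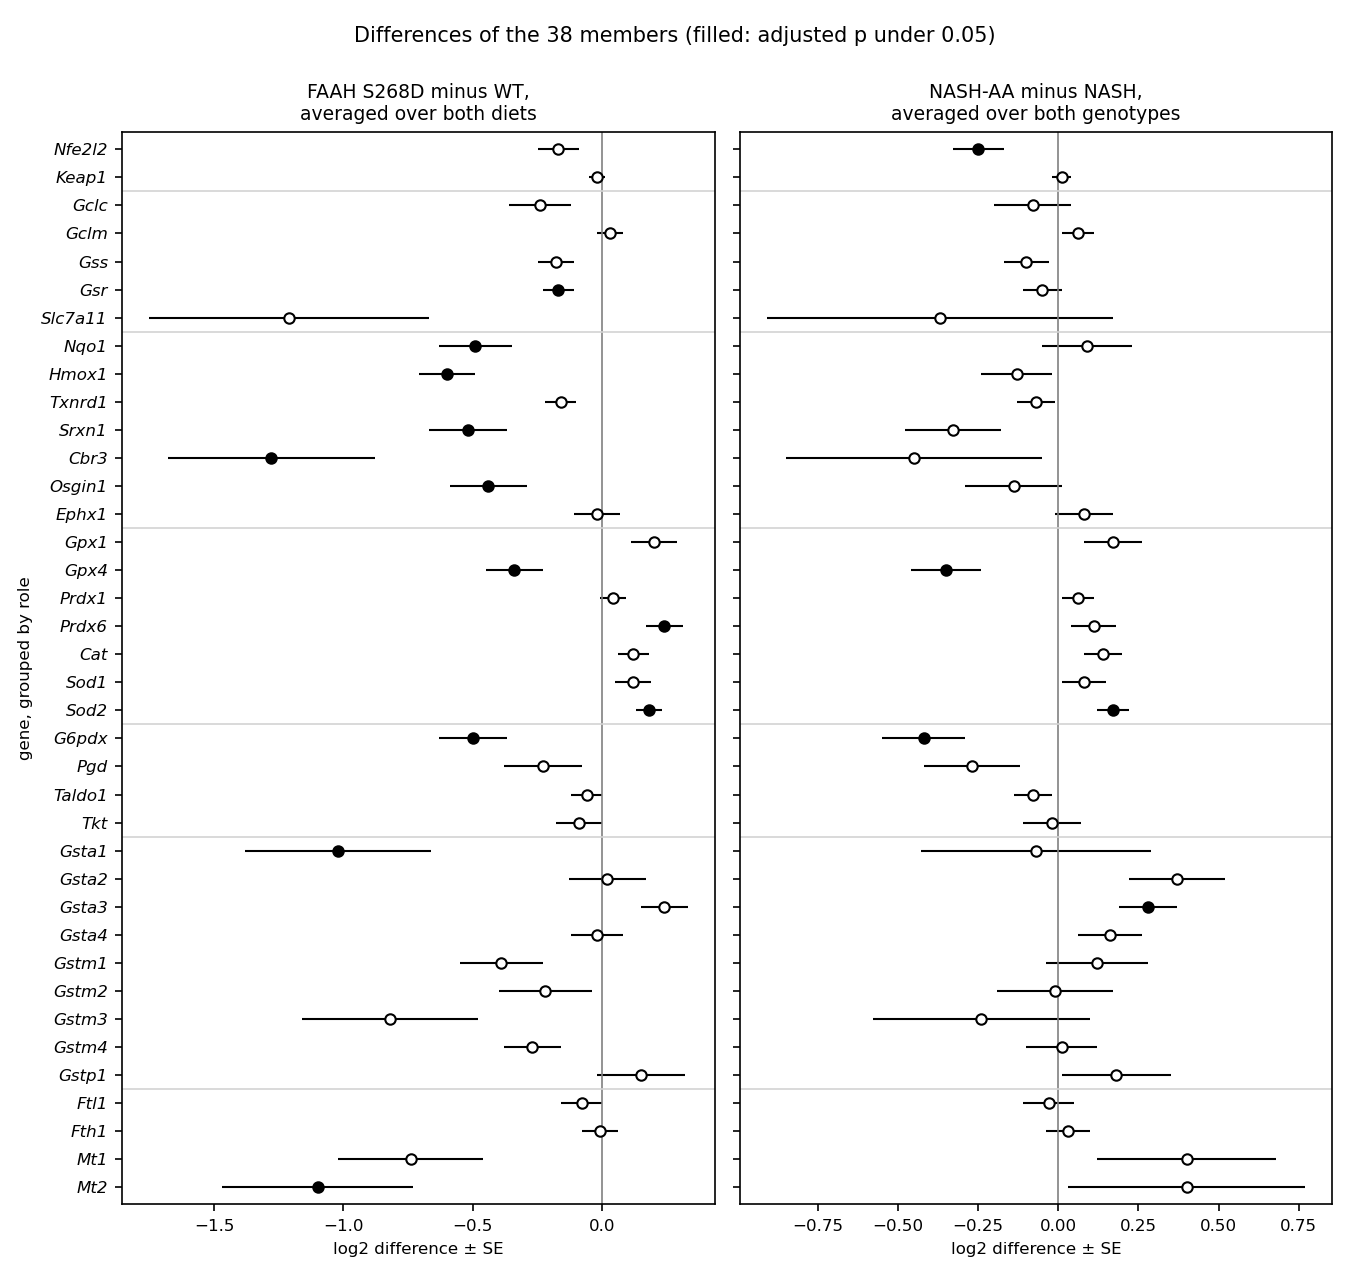
Log2 difference with its SE for each of the 38 members, in the order of their roles, for FAAH S268D minus WT averaged over both diets (left) and NASH-AA minus NASH averaged over both genotypes (right). Filled points passed an adjusted p under 0.05: 12 on the left, 10 of them below 0, and 5 on the right, 3 of them below 0.

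The plot of log2 differences shows that 5 of the 10 lower calls for genotype were quinone, haem and thiol enzymes. Of those 7 NRF2 target genes, 5 were lower and 0 higher (of all genes, 10.3% and 6.9%), and the median log2 difference was -0.49. Hmox1, which encodes haem oxygenase 1, measured 18.8 to 36.6 CPM (median 31.5) in FAAH S268D NASH-AA and 25.4 to 40.3 CPM (median 34.3) in FAAH S268D NASH libraries. It measured 33.9 to 59.9 CPM (median 45.5) in WT NASH-AA and 29.2 to 75.7 CPM (median 46.9) in WT NASH libraries. All 16 FAAH S268D libraries lay below the median of the 16 WT libraries, although the ranges overlapped on both diets. Hmox1 was lower in FAAH S268D (-0.60 ± 0.11, adjusted p = 0.000658). The difference was -0.66 ± 0.14 among library numbers 1 to 16 (adjusted p = 0.0186) and -0.60 ± 0.15 among 17 to 32 (adjusted p = 0.114).

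Macrophages are known to express Hmox1 strongly when they take up haem, and macrophage and monocyte markers moved in the same direction. Of 18 such markers, 14 were lower in FAAH S268D and 0 higher (of all genes, 10.3% and 6.9%), and none was at 0 throughout. Their summed level was 436 to 766 CPM (median 665) in FAAH S268D NASH-AA and 456 to 921 CPM (median 727) in FAAH S268D NASH, against 734 to 1013.5 CPM (median 870) in WT NASH-AA and 638 to 1774.6 CPM (median 1308.5) in WT NASH. Of 15 hepatocyte markers, 6 were higher in FAAH S268D and 0 lower, and their summed level was 71690.8 to 117324.7 CPM in FAAH S268D libraries on NASH. Those sums were 94636.2 to 110678.1 CPM in FAAH S268D NASH-AA, 78083.0 to 99559.8 CPM in WT NASH-AA and 61953.3 to 92014.8 CPM in WT NASH. Among the other marker lists, 5 of 9 periportal and 2 of 9 pericentral hepatocyte markers were higher in FAAH S268D, while 3 periportal and 1 pericentral lay below 0. Of 8 cholangiocyte and 8 endothelial markers, 0 passed. Of 9 T, B and NK cell markers 4 were lower, all of them T cell genes (Cd3g, Cd3e, Cd8a and Trac), and 3 lay above 0 (median -0.61). Of 9 stellate cell and fibroblast markers 3 were lower (median -0.32, all 9 below 0). Stellate cell and fibroblast markers summed to 214 to 681 CPM in FAAH S268D NASH-AA and 210 to 835 CPM in FAAH S268D NASH, against 370 to 621 CPM in WT NASH-AA and 369 to 735 CPM in WT NASH. T, B and NK cell markers summed to 5.65 to 9.39 CPM in FAAH S268D NASH-AA and 6.26 to 10.7 CPM in FAAH S268D NASH, against 6.55 to 16 CPM in WT NASH-AA and 5.11 to 17 CPM in WT NASH. The part of cell makeup in the members' differences was not tested.

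Nqo1, which encodes the quinone reductase most often used as a readout of NRF2, had medians of 9.37 CPM in FAAH S268D NASH-AA (7.52 to 13.7) and 9.78 CPM in FAAH S268D NASH (5.17 to 13.8). In WT the medians were 14.3 CPM on NASH-AA (9.60 to 23.5) and 12.6 CPM on NASH (8.98 to 20.3). The ranges overlapped, and 14 of 16 FAAH S268D libraries lay below the WT median. Nqo1 was lower in FAAH S268D (-0.49 ± 0.14, adjusted p = 0.016). Within FAAH S268D NASH, replicates 1 to 4 were at 7.18, 5.17, 6.38 and 7.67 CPM and replicates 5 to 8 at 12.1, 11.9, 13.8 and 13.3 CPM. The last 4 were within the range of the WT NASH libraries, and the first 4 were below every WT library. The genotype difference was -0.77 ± 0.20 among library numbers 1 to 16 (adjusted p = 0.0425) and -0.19 ± 0.14 among 17 to 32 (adjusted p = 0.549).

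Srxn1 encodes sulfiredoxin, which restores overoxidised peroxiredoxins, and it was likewise uneven within groups. It measured 47.5 to 90.7 CPM (median 57.7) in FAAH S268D NASH-AA and 44.2 to 146 CPM (median 89.6) in FAAH S268D NASH. In WT it measured 75.0 to 133 CPM (median 87.2) on NASH-AA and 62.2 to 158 CPM (median 121) on NASH. FAAH S268D NASH replicates 2 to 4, at 44.2, 53.4 and 57.3 CPM, and FAAH S268D NASH-AA replicates 1, 2, 4, 5 and 6, at 53.9, 51.5, 50.1, 47.5 and 61.5 CPM, were below every WT library. Srxn1 was lower in FAAH S268D (-0.52 ± 0.15, adjusted p = 0.0205), with -0.93 ± 0.20 among library numbers 1 to 16 and -0.03 ± 0.16 among 17 to 32. Within 17 to 32 the averaged value combined -0.44 ± 0.21 on NASH-AA and 0.38 ± 0.24 on NASH, neither of which passed (adjusted p = 0.361 and 0.662).

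Cbr3, a carbonyl reductase gene, had the largest called difference of the members, -1.28 ± 0.40 (adjusted p = 0.0268). It measured 0.537 to 4.51 CPM (median 1.91) in FAAH S268D NASH-AA and 0.521 to 11.1 CPM (median 4.78) in FAAH S268D NASH, against 2.19 to 15.8 CPM (median 5.47) in WT NASH-AA and 2.22 to 12.2 CPM (median 7.22) in WT NASH. FAAH S268D NASH replicates 2 to 4, at 0.521, 1.41 and 0.689 CPM, and FAAH S268D NASH-AA replicates 1, 2, 4 and 5, at 1.63, 0.793, 0.763 and 0.537 CPM, lay below every WT library. FAAH S268D NASH replicates 5 to 8 were at 5.14 to 11.1 CPM. The difference was -1.97 ± 0.59 among library numbers 1 to 16 (adjusted p = 0.0579) and -0.50 ± 0.37 among 17 to 32 (adjusted p = 0.543). The call was lost when FAAH S268D NASH replicate 2 (-1.10), FAAH S268D NASH replicate 4 (-1.13) or FAAH S268D NASH-AA replicate 5 (-1.15) was left out.

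Osgin1, an oxidative stress-induced growth inhibitor gene, was lower in FAAH S268D (-0.44 ± 0.15, adjusted p = 0.0428). Its medians were 112 CPM in FAAH S268D NASH-AA and 95.4 CPM in FAAH S268D NASH, against 117 CPM in WT NASH-AA and 149 CPM in WT NASH. FAAH S268D NASH replicate 3, at 261 CPM, was the highest of all 32 libraries, and the other 7 of its group reached at most 117 CPM. The Osgin1 call was lost in 18 of the 32 fits that left out 1 library, with values between -0.53 and -0.38 over all 32, and with library range as a term in the fit (-0.43 ± 0.15, adjusted p = 0.051). Txnrd1, which encodes cytosolic thioredoxin reductase, measured 118 to 152 CPM (median 136) in FAAH S268D NASH-AA and 114 to 182 CPM (median 146) in FAAH S268D NASH. Txnrd1 measured 127 to 169 CPM (median 151) in WT NASH-AA and 126 to 189 CPM (median 158) in WT NASH, and it missed the threshold (-0.16 ± 0.06, adjusted p = 0.0661). Ephx1, the microsomal epoxide hydrolase gene, differed by -0.02 ± 0.09 (adjusted p = 0.921).

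**Figure D2:**
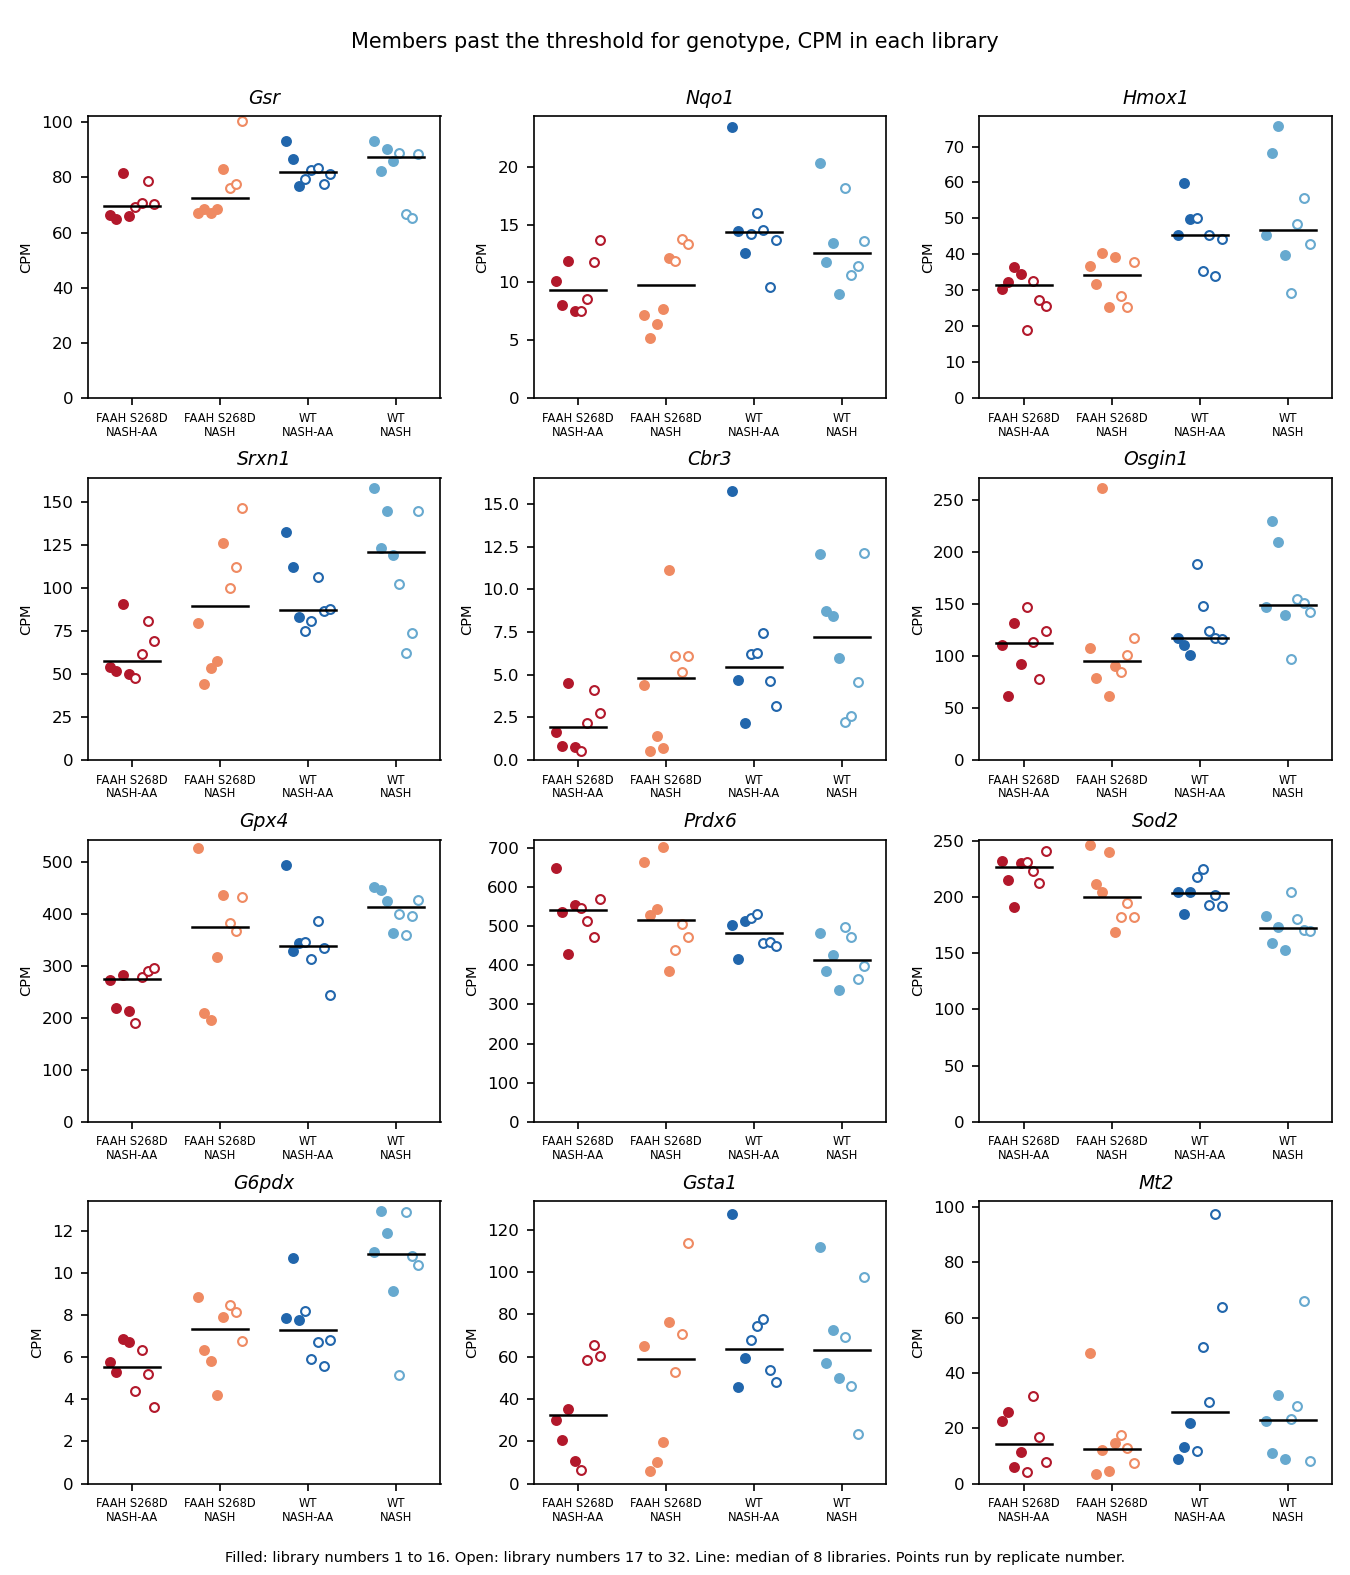
CPM in each of the 32 libraries for the 12 members that passed the threshold for genotype averaged over both diets; lines are medians of 8 libraries, filled points library numbers 1 to 16 and open points 17 to 32. For Nqo1, Srxn1, Cbr3 and Gsta1, FAAH S268D NASH replicates 2 to 4 (filled) lie below every WT library.

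The plot of these 12 genes by library shows that the ranges of all of them overlapped between genotypes on both diets. Of the regulators, Nfe2l2 measured 60.6 to 80.8 CPM (median 73.7) in FAAH S268D NASH-AA and 63.0 to 113 CPM (median 86.8) in FAAH S268D NASH, against 63.3 to 95.1 CPM (median 83.8) in WT NASH-AA and 81.0 to 115 CPM (median 96.2) in WT NASH. Its genotype difference of -0.17 ± 0.08 did not pass (adjusted p = 0.124). Keap1 was at 66.1 to 70.4 CPM (median 68.3) in FAAH S268D NASH-AA, 62.1 to 73.9 CPM (median 70.6) in FAAH S268D NASH, 67.6 to 75.0 CPM (median 70.3) in WT NASH-AA and 61.9 to 75.4 CPM (median 70.1) in WT NASH. Its genotype difference was -0.02 ± 0.03 (adjusted p = 0.666). The transcript of neither regulator therefore passed for genotype, and protein was not measured.

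Among the 5 genes of glutathione synthesis, cystine import and reduction, 1 was lower and 0 higher (of all genes, 10.3% and 6.9%). With so few genes, 1 call does not describe the class. Gsr, which encodes the reductase that regenerates glutathione from its disulfide, measured 64.8 to 81.6 CPM (median 69.7) in FAAH S268D NASH-AA and 67 to 100 CPM (median 72.5) in FAAH S268D NASH. In WT it measured 76.7 to 93.3 CPM (median 82.1) on NASH-AA and 65.4 to 93.1 CPM (median 87.3) on NASH. Gsr was lower in FAAH S268D (-0.17 ± 0.06, adjusted p = 0.0359), a call lost in 13 of 32 fits without 1 library, with -0.30 ± 0.07 among library numbers 1 to 16 and -0.01 ± 0.08 among 17 to 32. Gclc and Gclm encode the catalytic and modifier subunits of glutamate-cysteine ligase, the rate-limiting enzyme of glutathione synthesis.

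Gclc ran from 227 to 408 CPM (median 304) in FAAH S268D NASH-AA and 209 to 558 CPM (median 332) in FAAH S268D NASH, against 285 to 403 CPM (median 368) in WT NASH-AA and 219 to 511 CPM (median 417) in WT NASH. Gclm ran from 161 to 195 CPM (median 181) in FAAH S268D NASH-AA and 134 to 191 CPM (median 170) in FAAH S268D NASH, against 154 to 194 CPM (median 171) in WT NASH-AA and 151 to 185 CPM (median 168) in WT NASH. Neither subunit passed, with -0.24 ± 0.12 for Gclc (adjusted p = 0.168) and 0.03 ± 0.05 for Gclm (adjusted p = 0.683). Gss, the glutathione synthetase gene, differed by -0.18 ± 0.07 (adjusted p = 0.088). Slc7a11, the cystine carrier gene, had medians of 0.236 CPM in FAAH S268D NASH-AA and 0.302 CPM in FAAH S268D NASH, against 0.348 CPM in WT NASH-AA and 0.644 CPM in WT NASH (-1.21 ± 0.54, adjusted p = 0.121).

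The 7 peroxidases, catalase and superoxide dismutases did not move as the quinone and thiol enzymes did. Of them 2 were higher and 1 lower (of all genes, 6.9% and 10.3%), and the median log2 difference was 0.12. Sod2, which encodes the mitochondrial superoxide dismutase, measured 192 to 241 CPM (median 227) in FAAH S268D NASH-AA and 169 to 247 CPM (median 200) in FAAH S268D NASH, against 185 to 225 CPM (median 204) in WT NASH-AA and 153 to 205 CPM (median 172) in WT NASH. Sod2 rose by 0.18 ± 0.05 (adjusted p = 0.0133), and 13 of 16 FAAH S268D libraries were above the WT median. Of its 31-base words, 26.6% occur in other genes. Prdx6, a peroxiredoxin gene whose product also reduces phospholipid hydroperoxides, rose by 0.24 ± 0.07 (adjusted p = 0.0218). Its medians were 542 CPM in FAAH S268D NASH-AA (429 to 650) and 517 CPM in FAAH S268D NASH (385 to 703), against 482 CPM in WT NASH-AA (415 to 531) and 412 CPM in WT NASH (337 to 497). Within library numbers 1 to 16 and 17 to 32 the differences were 0.25 ± 0.08 and 0.09 ± 0.05 for Sod2, and 0.33 ± 0.13 and 0.13 ± 0.07 for Prdx6.

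Gpx4, which encodes the peroxidase that detoxifies lipid hydroperoxides in membranes, went the other way and was lower in FAAH S268D (-0.34 ± 0.11, adjusted p = 0.0321). It measured 191 to 296 CPM (median 276) in FAAH S268D NASH-AA and 195 to 527 CPM (median 375) in FAAH S268D NASH, against 245 to 495 CPM (median 340) in WT NASH-AA and 359 to 452 CPM (median 413) in WT NASH. All 8 FAAH S268D NASH-AA libraries were below the WT NASH-AA median, whereas FAAH S268D NASH held both the highest and some of the lowest libraries. Of the 31-base words of Gpx4, 38.9% also occur in other genes, mostly in the pseudogene Gpx4-ps2, so its counts are uncertain. Gpx1, the main cytosolic glutathione peroxidase gene, measured 1672.6 to 2519.8 CPM (median 2049.0) in FAAH S268D NASH-AA and 1375.3 to 2755.8 CPM (median 1734.3) in FAAH S268D NASH, against 1515.2 to 2106.3 CPM (median 1929.3) in WT NASH-AA and 1311.2 to 1869.8 CPM (median 1612.4) in WT NASH. Its ranges overlapped and its difference did not pass (0.20 ± 0.09, adjusted p = 0.105). Cat (catalase), Sod1 (cytosolic superoxide dismutase) and Prdx1 (a cytosolic peroxiredoxin) had differences of 0.12, 0.12 and 0.04 on the log2 scale and did not pass either. Prdx1 lies 0.668 Mb from Faah on chromosome 4.

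In the pentose phosphate pathway, which supplies NADPH for glutathione and thioredoxin reduction, 1 of 4 members was lower and 0 higher. The shares of all genes were 10.3% and 6.9%, and 1 call among so few genes does not describe the pathway. G6pdx encodes glucose-6-phosphate dehydrogenase, the entry enzyme. It measured 3.64 to 6.88 CPM (median 5.54) in FAAH S268D NASH-AA and 4.18 to 8.84 CPM (median 7.36) in FAAH S268D NASH. In WT it measured 5.58 to 10.7 CPM (median 7.29) on NASH-AA and 5.15 to 12.9 CPM (median 10.9) on NASH. On each diet all 8 FAAH S268D libraries were below the WT median, and the ranges overlapped. G6pdx was lower in FAAH S268D (-0.50 ± 0.13, adjusted p = 0.00662), with -0.67 ± 0.13 among library numbers 1 to 16 and -0.36 ± 0.18 among 17 to 32. Its exons overlap those of Ikbkg on the other strand over 418 bases. The other 3, Pgd (phosphogluconate dehydrogenase), Tkt (transketolase) and Taldo1 (transaldolase), differed by -0.23, -0.09 and -0.06 and did not pass.

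Among the members in a RefSeq promoter table, G6pdx was the one past the threshold for both averaged comparisons (genotype and diet) that holds an antioxidant response element core, so its upstream sequence is shown. The core searched was TGACNNNGC on both strands in the 250 bases before each start site. It occurred in 8 of the 33 member genes found in the table (24.2%) and in 11.5% of all 27025 genes there. The 8 were G6pdx, Gclm, Gsta3, Mt2, Nfe2l2, Prdx1, Sod1 and Txnrd1. The G6pdx sequence below is from GRCm38.p6, chrX:74428881-74429130, minus strand, written 5′ to 3′ toward the start site, and the capitals mark the match, which reads on the opposite strand and begins 57 bases before the start.
G6pdx: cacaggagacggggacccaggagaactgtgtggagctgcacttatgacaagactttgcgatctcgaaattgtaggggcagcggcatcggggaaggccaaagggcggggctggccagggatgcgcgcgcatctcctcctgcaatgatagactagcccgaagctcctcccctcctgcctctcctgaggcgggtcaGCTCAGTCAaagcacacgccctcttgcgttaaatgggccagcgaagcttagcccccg
A match is a description of letters and does not show a bound site. Nqo1, Srxn1, Cbr3, Osgin1 and Gsta1 have no match in this window, and Hmox1, Gsr, Gclc, Prdx6 and Gsta4 were not in the table.

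Of the 9 glutathione S-transferases, which join glutathione to electrophiles, 1 was lower and 0 higher. This is near the 10.3% of all genes that were lower, with 6.9% higher, so it is no result about the class. Gsta1, an alpha-class transferase gene inducible in mouse liver, measured 6.31 to 65.3 CPM (median 32.6) in FAAH S268D NASH-AA and 5.78 to 114 CPM (median 58.9) in FAAH S268D NASH, against 45.6 to 127 CPM (median 63.7) in WT NASH-AA and 23.4 to 112 CPM (median 63.2) in WT NASH. FAAH S268D NASH replicates 2 to 4, at 5.78, 10.4 and 19.8 CPM, lay below every WT library. FAAH S268D NASH-AA replicates 2, 4 and 5, at 20.6, 10.8 and 6.31 CPM, did so too. Gsta1 was lower in FAAH S268D (-1.02 ± 0.36, adjusted p = 0.0462), with -1.72 ± 0.46 among library numbers 1 to 16 and -0.16 ± 0.43 among 17 to 32. The call was lost in 19 of 32 fits without 1 library and with library range as a term (-0.97 ± 0.36, adjusted p = 0.0597). Of its 31-base words, 92.9% occur in other genes, mostly in the neighbouring copy Gm3776, so the level cannot be assigned to Gsta1 alone.

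The mu-class genes did not pass. Gstm3 was at 70.5, 107 and 71.5 CPM in FAAH S268D NASH replicates 2 to 4 and at 60.1 and 53.4 CPM in FAAH S268D NASH-AA replicates 4 and 5, against 215 to 770 CPM in WT NASH-AA and 109 to 607 CPM in WT NASH. Its difference was -0.82 ± 0.34 (adjusted p = 0.0927). Gstm1 and Gstm4 differed by -0.39 ± 0.16 (adjusted p = 0.0814) and -0.27 ± 0.11 (adjusted p = 0.0994), and Gstm2 by -0.22 ± 0.18 (adjusted p = 0.432). Gsta3, the most abundant alpha-class member per kilobase, differed by 0.24 ± 0.09 in the opposite direction (adjusted p = 0.0743). Gstp1 was highest in FAAH S268D NASH replicate 3, at 2824.8 CPM, where the rest of that group reached at most 1286.6 CPM. Gstp1 differed by 0.15 ± 0.17, Gsta2 by 0.02 ± 0.15 and Gsta4 by -0.02 ± 0.10, and none of these passed. Gstm1, Gstm3, Gstp1 and Gsta2 share 28.8%, 37.7%, 38.5% and 60.7% of their 31-base words with other genes, which leaves their counts uncertain.

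**Figure D3:**
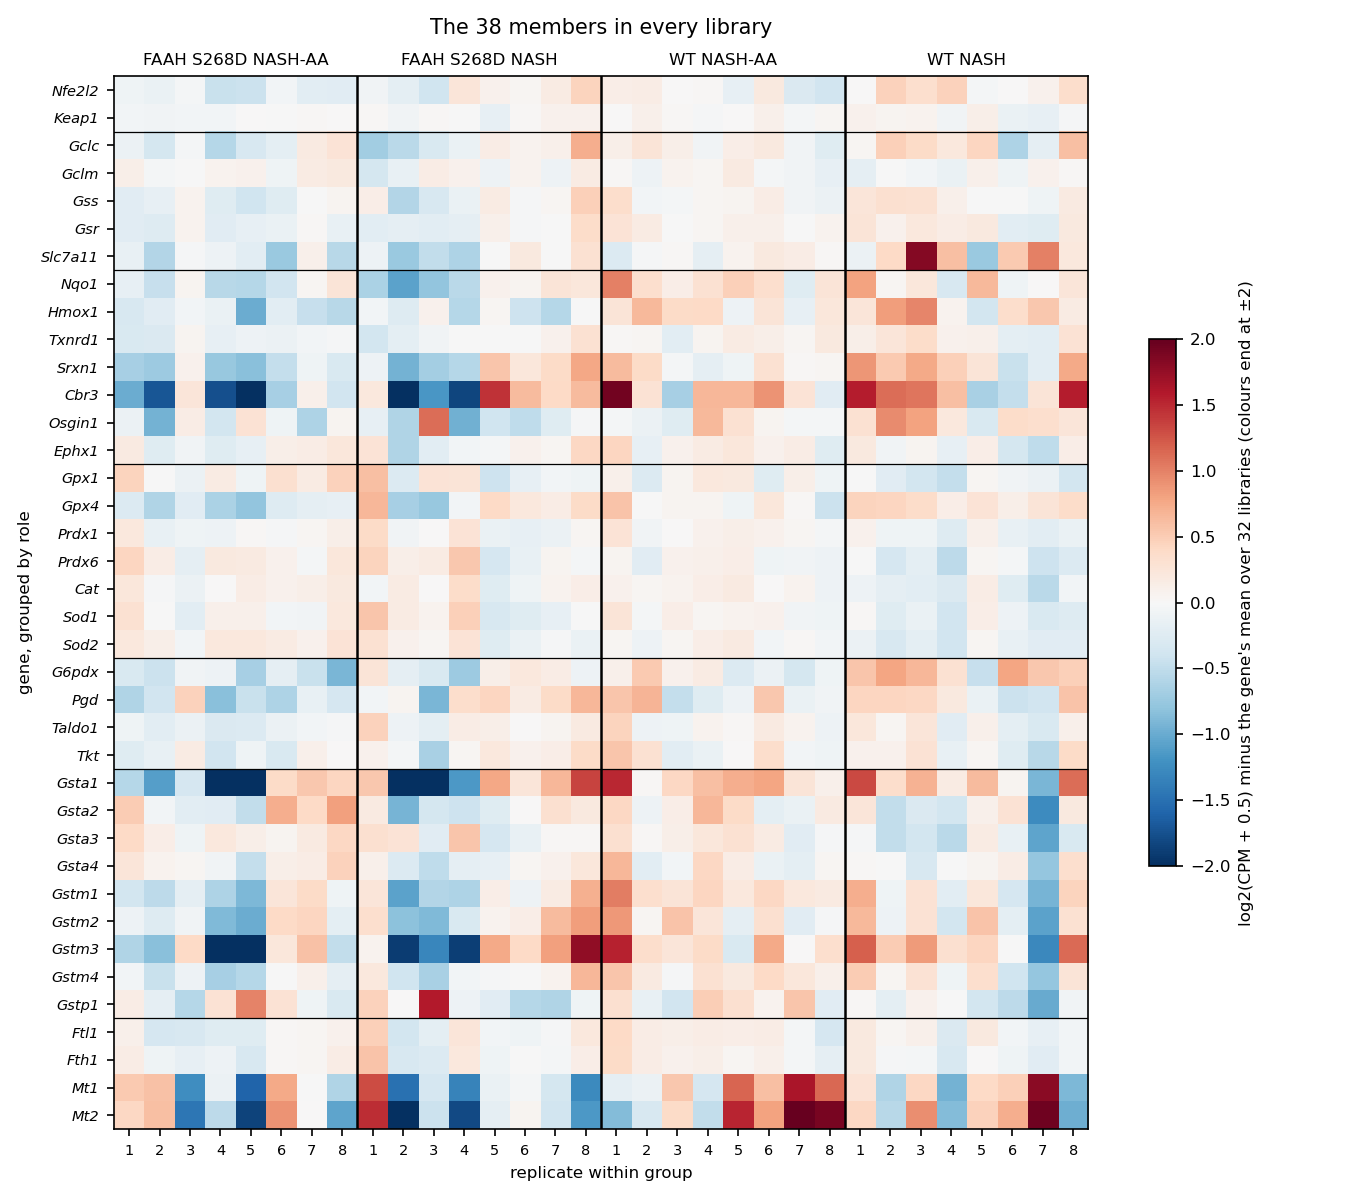
Log2(CPM + 0.5) of each member minus its mean over the 32 libraries (colour, ending at ±2), with members down the page by role and libraries across by group and replicate. FAAH S268D NASH replicates 2 to 4 are low together for Nqo1, Srxn1, Cbr3, Gsta1, Gstm1 and Gstm3. FAAH S268D NASH-AA replicates 2, 4 and 5 are low for the same genes, and WT NASH replicate 7 for Gsta1, Gstm1 and Gstm3. Mt1 and Mt2 vary together in every group.

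The colour map of all members shows how single libraries stood within their groups. WT NASH-AA replicate 1 was the highest of its group for 20 of the 38 members and FAAH S268D NASH replicate 8 for 18. WT NASH replicate 7 was the lowest of its group for 17 members, FAAH S268D NASH-AA replicate 5 for 15 and FAAH S268D NASH replicate 2 for 14. When FAAH S268D NASH replicate 2 or 4 was left out, 6 members passed for genotype instead of 12, and without FAAH S268D NASH-AA replicate 4 or 5, 7 passed. Hmox1, Nqo1, Srxn1, G6pdx, Prdx6 and Sod2 kept their calls in all 32 such fits. Among library numbers 1 to 16 alone 8 members passed, with 5.42% of all genes, and among 17 to 32 alone 0 did, with 0.403% of all genes. Those 8 included Hmox1, Nqo1, Srxn1, G6pdx, Gsr and Gsta1, and the rest of them had not passed in the pooled fit. Cbr3, Osgin1, Gpx4, Prdx6, Sod2 and Mt2 passed in the pooled fit but in neither range alone.

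Of the metal and iron binding members, 1 of 4 was lower and 0 higher (of all genes, 10.3% and 6.9%), which is too few to describe the class. Mt1 and Mt2 encode metallothioneins, small zinc-binding proteins induced by metals, glucocorticoids and inflammation as well as oxidants. Mt2 measured 4.25 to 31.6 CPM (median 14.2) in FAAH S268D NASH-AA and 3.37 to 47.2 CPM (median 12.5) in FAAH S268D NASH, against 8.91 to 97.4 CPM (median 25.8) in WT NASH-AA and 8.22 to 66.2 CPM (median 22.9) in WT NASH. Mt1 measured 16.8 to 87.8 CPM (median 49.5) in FAAH S268D NASH-AA and 18.1 to 129 CPM (median 40.9) in FAAH S268D NASH, against 40.8 to 161 CPM (median 77.2) in WT NASH-AA and 26.8 to 184 CPM (median 65.8) in WT NASH. Both genes spanned wide ranges within each group that overlapped between genotypes. Mt2 was lower in FAAH S268D (-1.10 ± 0.37, adjusted p = 0.0409), with -0.49 ± 0.44 among library numbers 1 to 16 and -1.44 ± 0.55 among 17 to 32. Mt1 missed the threshold (-0.74 ± 0.28, adjusted p = 0.065), and the Mt2 call was lost in 16 of 32 fits without 1 library. The ferritin genes Ftl1 and Fth1 differed by -0.08 ± 0.08 and -0.01 ± 0.07.

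Mt1 and Mt2 are neighbours on chromosome 8, at 94179082 to 94180327 and 94172664 to 94173568 on the plus strand of GRCm38, and their upstream sequences are shown because the genes varied together. Metal response element cores, searched as TGCACNC or TGCGCNC on both strands, occurred in 9 of the 33 member genes in the table (27.3%) and in 23.8% of all genes. Capitals mark these matches in the 250 bases before each start site, plus strand of GRCm38.p6, at chr8:94178839-94179088 for Mt1 and chr8:94172368-94172617 for Mt2.
Mt1: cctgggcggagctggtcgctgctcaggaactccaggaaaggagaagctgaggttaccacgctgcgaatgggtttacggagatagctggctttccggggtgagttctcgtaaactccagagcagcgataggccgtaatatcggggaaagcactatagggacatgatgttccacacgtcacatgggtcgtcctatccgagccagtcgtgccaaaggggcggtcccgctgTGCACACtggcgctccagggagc
Mt2: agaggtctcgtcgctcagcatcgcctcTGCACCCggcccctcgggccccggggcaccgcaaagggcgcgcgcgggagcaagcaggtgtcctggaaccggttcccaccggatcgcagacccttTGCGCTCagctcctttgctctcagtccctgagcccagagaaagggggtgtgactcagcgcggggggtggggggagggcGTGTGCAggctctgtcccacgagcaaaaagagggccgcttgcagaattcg
Mt1 had 1 match, 23 bases before the start, and Mt2 had 3, at 223, 128 and 50 bases. The Mt1 window ends at 94179088, inside the gene as annotated, and the Mt2 window ends before its gene begins. These counts hold for these windows only, and bases beyond them were not searched. The antioxidant response element core of Mt2, 79 bases before the start, does not overlap its metal response element cores. The exons of Mt2 overlap the antisense gene Gm45774 over 432 bases, and without a stated strand their reads cannot be told apart.

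On the NASH diet alone, 5 members passed for FAAH S268D against WT (13.2%, against 9.19% of all genes). Hmox1 (-0.59 ± 0.16, adjusted p = 0.019) and G6pdx (-0.58 ± 0.17, adjusted p = 0.029) were lower, 5.26% of members against 6.3% of all genes. Prdx6 (0.34 ± 0.10, adjusted p = 0.0351), Sod2 (0.23 ± 0.07, adjusted p = 0.0366) and Gsta3 (0.42 ± 0.13, adjusted p = 0.0386) were higher, 7.89% of members against 2.89%. All 8 FAAH S268D NASH libraries were below the WT NASH median for Hmox1 and G6pdx, and 7 of 8 were above it for each of the other 3. The number of calls was 0 without WT NASH replicate 2 or FAAH S268D NASH replicate 4, 1 without WT NASH replicate 3, WT NASH replicate 7 or FAAH S268D NASH replicate 2, 2 without WT NASH replicate 4, WT NASH replicate 8 or FAAH S268D NASH replicate 1, 3 without FAAH S268D NASH replicate 3 and 8 without WT NASH replicate 5. Fitted alone, library numbers 1 to 16 gave 4 calls, all lower, with 5.88% of all genes called, and 17 to 32 gave 0, with 0.134% of all genes. The 4 calls included Hmox1 and G6pdx, and also Srxn1, which had not passed in the pooled fit on NASH.

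On the NASH-AA diet, limma-voom called 0 members for FAAH S268D against WT, and 0.658% of all genes (0.349% higher and 0.309% lower). At an unadjusted p under 0.05 there were 15 of 38 members, a larger share than the 15.6% of all genes. Limma-trend also called 0 members. The median log2 difference over the members was -0.21, with 30 of 38 below 0. Hmox1 was nearest to the threshold (-0.62 ± 0.16, adjusted p = 0.0601), and all 8 FAAH S268D NASH-AA libraries were below the WT NASH-AA median for Hmox1, Nqo1, Cbr3, Gsr, Gpx4, G6pdx, Taldo1, Gstm4, Ftl1 and Nfe2l2. Leaving out WT NASH replicate 3, WT NASH replicate 5, WT NASH-AA replicate 7 or FAAH S268D NASH-AA replicate 3 gave 1 call each. Both genotype comparisons share no libraries, and the test of the difference between them is the interaction given after the diet comparison.

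The diet comparison asked what NASH-AA feeding changed relative to NASH feeding. Averaged over genotypes, 5 members passed (13.2%, against 10.9% of all genes). Nfe2l2, G6pdx and Gpx4 were lower on NASH-AA (7.89%, against 6.27% of all genes), and Sod2 and Gsta3 were higher (5.26%, against 4.62%). The median over the members was 0.00 with 19 on each side of 0, and it averaged different values in the 2 genotypes. In FAAH S268D the median was -0.09 with 26 of 38 below 0, against 0.11 in WT with 26 of 38 above 0, where the medians over all genes were 0.00 and 0.01. All 9 transferases were above 0 in WT, and 6 of 9 were below 0 in FAAH S268D.

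Nfe2l2, the gene of NRF2, was lower on NASH-AA (log2 difference -0.25 ± 0.08, adjusted p = 0.0307). Its values are those given above, with 13 of 16 NASH-AA libraries below the median of the NASH libraries. The differences in the 2 genotypes were the same size, -0.25 ± 0.11 in FAAH S268D and -0.25 ± 0.11 in WT, and neither passed by itself (adjusted p = 0.332 and 0.139). Among library numbers 1 to 16 the averaged difference was -0.16 ± 0.10 (adjusted p = 0.692) and among 17 to 32 it was -0.34 ± 0.09 (adjusted p = 0.0263). The call was lost without WT NASH replicate 2 (-0.23), WT NASH-AA replicate 5 (-0.24), WT NASH-AA replicate 8 (-0.22), FAAH S268D NASH replicate 8 (-0.22) or FAAH S268D NASH-AA replicate 5 (-0.23).

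G6pdx was lower on NASH-AA (-0.42 ± 0.13, adjusted p = 0.0296), with 15 of 16 NASH-AA libraries below the NASH median, and so was Gpx4 (-0.35 ± 0.11, adjusted p = 0.0397), likewise in 15 of 16. Sod2 rose by 0.17 ± 0.05 (adjusted p = 0.0228), and all 16 NASH-AA libraries were above the NASH median. Sod2 kept its call in all 32 fits without 1 library, whereas that of G6pdx was lost in 8 and that of Gpx4 in 18. Within library numbers 1 to 16 and 17 to 32 the averaged differences were -0.17 ± 0.13 and -0.63 ± 0.18 for G6pdx, -0.26 ± 0.20 and -0.45 ± 0.10 for Gpx4, and 0.14 ± 0.08 and 0.23 ± 0.05 for Sod2.

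Gsta3, an alpha-class transferase gene, rose by 0.28 ± 0.09 averaged over genotypes (adjusted p = 0.045), a call lost in 23 of 32 fits without 1 library and with library range as a term (0.29 ± 0.09, adjusted p = 0.0503). It measured 967 to 1368.8 CPM (median 1148.9) in FAAH S268D NASH-AA, against 814 to 1517.6 CPM (median 1048.9) in FAAH S268D NASH. In WT it measured 881 to 1294.7 CPM (median 1138.6) on NASH-AA, against 496 to 1151.3 CPM (median 818) on NASH. The WT NASH libraries were the low group, and the ranges overlapped. Its upstream sequence, shown as that of the one member called for diet in WT, is from GRCm38.p6, chr1:21240335-21240584, plus strand, with the antioxidant response element core in capitals, 121 bases before the start.
Gsta3: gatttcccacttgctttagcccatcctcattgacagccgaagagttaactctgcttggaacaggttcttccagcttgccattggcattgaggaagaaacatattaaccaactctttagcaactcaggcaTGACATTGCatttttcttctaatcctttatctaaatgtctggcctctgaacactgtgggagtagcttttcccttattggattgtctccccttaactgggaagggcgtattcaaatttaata

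**Figure D4:**
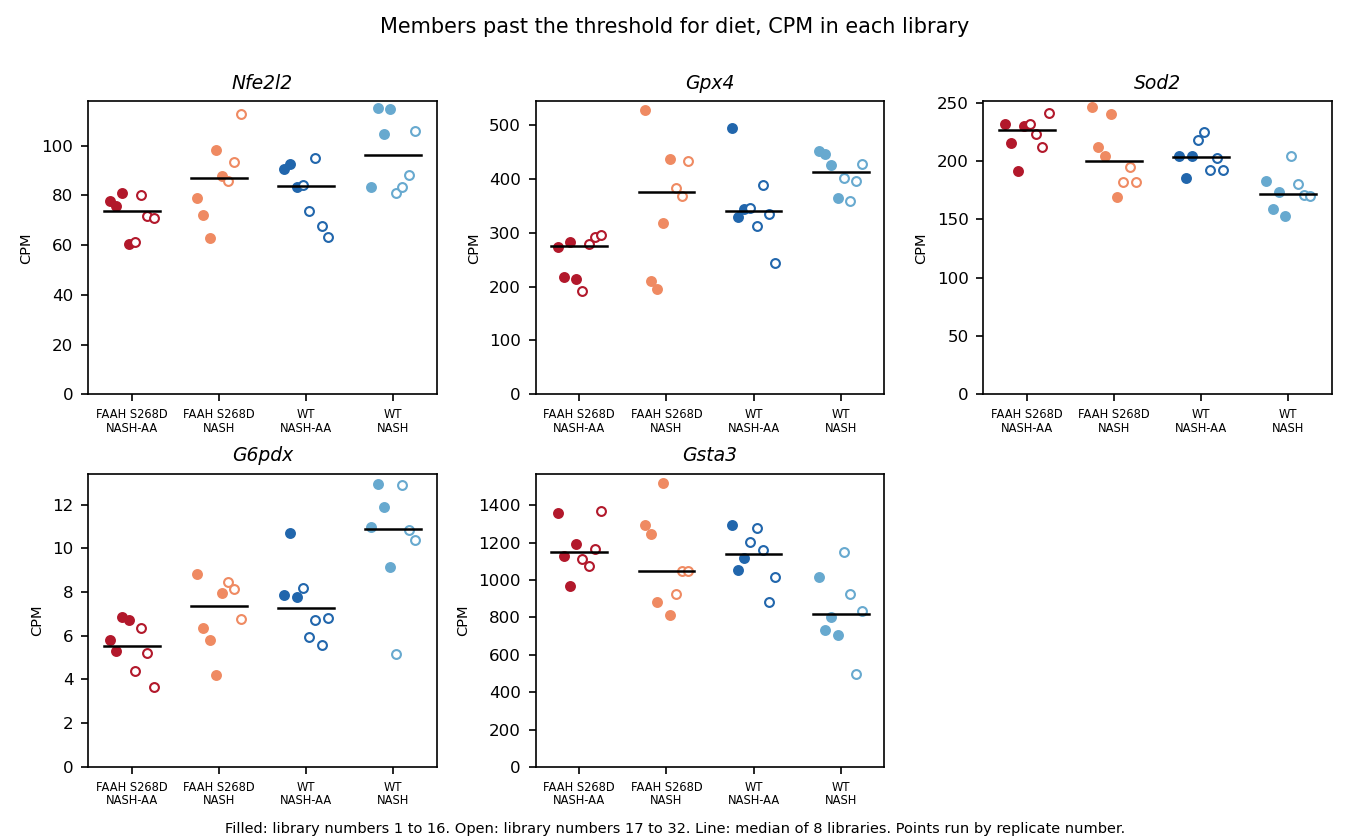
CPM in each of the 32 libraries for the 5 members that passed the threshold for diet averaged over both genotypes; lines are medians of 8 libraries, filled points library numbers 1 to 16 and open points 17 to 32. Sod2 and Gsta3 have their lowest median in WT NASH (172 and 818 CPM), and Nfe2l2, Gpx4 and G6pdx their lowest in FAAH S268D NASH-AA (73.7, 276 and 5.54 CPM).

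The plot of the diet genes by library shows ranges that overlap between the diets for all 5. The number of members called for diet was 1 without WT NASH replicate 2, WT NASH-AA replicate 5 or FAAH S268D NASH-AA replicate 5. It was 2 without any 1 of FAAH S268D NASH replicates 5 to 8 or WT NASH-AA replicate 8. It was 3 without WT NASH replicate 3, 7 or 8, WT NASH-AA replicate 3, 4 or 7, or FAAH S268D NASH-AA replicate 2, 4 or 8. Among library numbers 1 to 16 alone 0 members passed, with 0.0872% of all genes, and among 17 to 32 alone 5 did, with 13.4% of all genes. Those 5 included Nfe2l2, G6pdx, Gpx4 and Sod2, and the remaining call was a higher member that had not passed in the pooled fit. Gsta3 passed in neither range, at 0.28 ± 0.13 among 1 to 16 (adjusted p = 0.59) and 0.32 ± 0.14 among 17 to 32 (adjusted p = 0.123). Beside the diet genes, 8 of 18 macrophage markers and 4 of 8 cholangiocyte markers were lower on NASH-AA and 7 of 9 pericentral hepatocyte markers were higher. Hepatocyte markers (4 of 15) and erythroid genes (1 of 5) were also higher. Endothelial markers (2 of 8) and periportal markers (2 of 9, though 6 of the 9 lay above 0) were lower. Of 9 stellate cell and fibroblast and 9 T, B and NK cell markers, 0 passed. Of all genes, 4.62% were higher and 6.27% lower. Summed pericentral markers were 9132.4 to 14135.0 CPM in FAAH S268D NASH-AA and 6753.0 to 12803.0 CPM in FAAH S268D NASH, against 9018.3 to 13394.0 CPM in WT NASH-AA and 6175.2 to 12340.1 CPM in WT NASH. Their part in the diet differences was not tested.

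Within WT, 1 member passed for diet, Gsta3 (2.63%, against 4.41% of all genes, 1.44% higher and 2.97% lower), at 0.47 ± 0.13 (adjusted p = 0.0422), with all 8 WT NASH-AA libraries above the WT NASH median. It was 0.53 ± 0.20 among library numbers 1 to 16 and 0.43 ± 0.18 among 17 to 32. No member passed without WT NASH replicate 2, 3, 4, 7 or 8, or WT NASH-AA replicate 1, 3, 4, 5, 6, 7 or 8. There were 2 calls without FAAH S268D NASH replicate 1, 3 without WT NASH-AA replicate 2, FAAH S268D NASH replicate 4 or FAAH S268D NASH replicate 5, and 4 without WT NASH replicate 5. Sod2 (0.22 ± 0.07, adjusted p = 0.0575), Cat (0.25 ± 0.08, adjusted p = 0.064) and G6pdx (-0.50 ± 0.16, adjusted p = 0.0647) stood next to the threshold. All 8 WT NASH-AA libraries were above the WT NASH median for Sod2, Cat, Sod1, Prdx1, Prdx6 and Gstm1 as well.

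Within FAAH S268D, limma-voom called 0 members for diet, and 0.0939% of all genes (0.0268% higher and 0.0671% lower). At an unadjusted p under 0.05 there were 4 of 38 members, against 12.4% of all genes. Limma-trend called 0 too, and 1 member passed without FAAH S268D NASH replicate 3. Gpx4 had a difference of -0.46 ± 0.15 (adjusted p = 0.222), Taldo1 of -0.23 ± 0.09 (adjusted p = 0.281) and Pgd of -0.50 ± 0.20 (adjusted p = 0.303). The genotype by diet interaction, which tests whether the diet difference in FAAH S268D equals that in WT, called 0 members and 0% of all genes. At an unadjusted p under 0.05 it held 1 of 38 members, Taldo1, against 4.21% of all genes, and limma-trend called 0. The median interaction over the members was -0.18, with 31 of 38 below 0, and 0.01 over all genes. No single member's response to diet was shown to differ between genotypes.

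Other genes of the pathway, outside the 38, were also followed, and their counts stand beside the 17.2% of all genes called for genotype averaged over diets (6.9% higher and 10.3% lower). Of 10 other regulators, 2 were lower in FAAH S268D averaged over diets and 0 higher: Sqstm1, whose product p62 sequesters KEAP1 (-0.26 ± 0.07, adjusted p = 0.00694), and Mafk, a small MAF partner (-0.22 ± 0.08, adjusted p = 0.0411). Of 22 other reported targets tested, 2 were lower, Abcc1 (a glutathione conjugate exporter, -0.53 ± 0.14) and Cbr1 (a carbonyl reductase, -0.41 ± 0.13), and 2 higher, Ces2g (a carboxylesterase, 0.16 ± 0.04) and Akr7a5 (an aldehyde reductase, 0.17 ± 0.06). Of 14 other glutathione S-transferases tested, 4 were higher and 0 lower: Gstt1 (0.24 ± 0.08), Gstt2 (0.30 ± 0.09), Gstt3 (0.50 ± 0.14) and Gstz1 (0.27 ± 0.07). Of 15 other glutathione cycle genes tested, 4 were higher and 0 lower: Glo1 (0.25 ± 0.07) and Hagh (0.29 ± 0.09), the glyoxalases, with Chac2 (0.28 ± 0.08) and Glrx2 (0.14 ± 0.04). Of 16 other peroxidase, thioredoxin and superoxide dismutase genes, 5 were higher and 1, Sod3, was lower. Those higher were Txnrd3, Prdx4, Msrb1 and the mitochondrial genes Txn2 (0.22 ± 0.07) and Txnrd2 (0.19 ± 0.06).

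For diet averaged over genotypes, where 10.9% of all genes passed, Maff was lower (-0.32 ± 0.10, adjusted p = 0.0398) and Mafg higher (0.23 ± 0.07, adjusted p = 0.0253) among the 10 other regulators. Of the 22 other reported targets, 4 were higher, Ces2g, Ces1g, Ugt1a6a and Blvrb, and 2 lower, Abcc1 (-0.51 ± 0.14) and Akr1b8 (-0.48 ± 0.13). Gstt3 was the 1 higher transferase of 14 (0.77 ± 0.14, adjusted p = 0.002), and Chac2 the 1 higher glutathione cycle gene of 15 (0.23 ± 0.08). Gpx7 (-0.36 ± 0.12) and Sod3 (-0.29 ± 0.08) were lower among the 16 peroxidase, thioredoxin and dismutase genes, and 0 were higher.

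The last comparison asked which members varied with Nqo1 among livers of 1 genotype. It used the 16 WT libraries, with log2 CPM centred within each group, because FAAH S268D NASH fell into 2 sets for Nqo1. Of 37 relations, 10 passed a Benjamini-Hochberg adjusted permutation p under 0.05 for Pearson's r (100000 permutations within groups, two-sided), all positive, and 9 of these also passed for Spearman's rho. Prdx1 had the highest r, 0.83, with rho 0.74 (p = 0.00046 and 0.00249, permutation test; adjusted p = 0.0142 and 0.0138). Fth1 (r = 0.80, rho = 0.69), Sod1 (0.79 and 0.60), Ftl1 (0.74 and 0.74), Gstm1 (0.72 and 0.78), Gstm2 (0.71 and 0.67), Taldo1 (0.71 and 0.73), Gsta1 (0.69 and 0.77), Gsta3 (0.67 and 0.74) and Gstm4 (0.64 and 0.77) followed. Sod1 was the one that missed for rho (permutation adjusted p = 0.0528). Gsr (rho = 0.77), Ephx1 (0.74), Gstm3 (0.67) and Tkt (0.67) passed for rho alone, with permutation adjusted p of 0.0127, 0.0138, 0.0216 and 0.0222. The share of all genes that varied with Nqo1 was not computed. Whether members varied with Nqo1 more often than other genes is therefore not known.

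**Figure D5:**
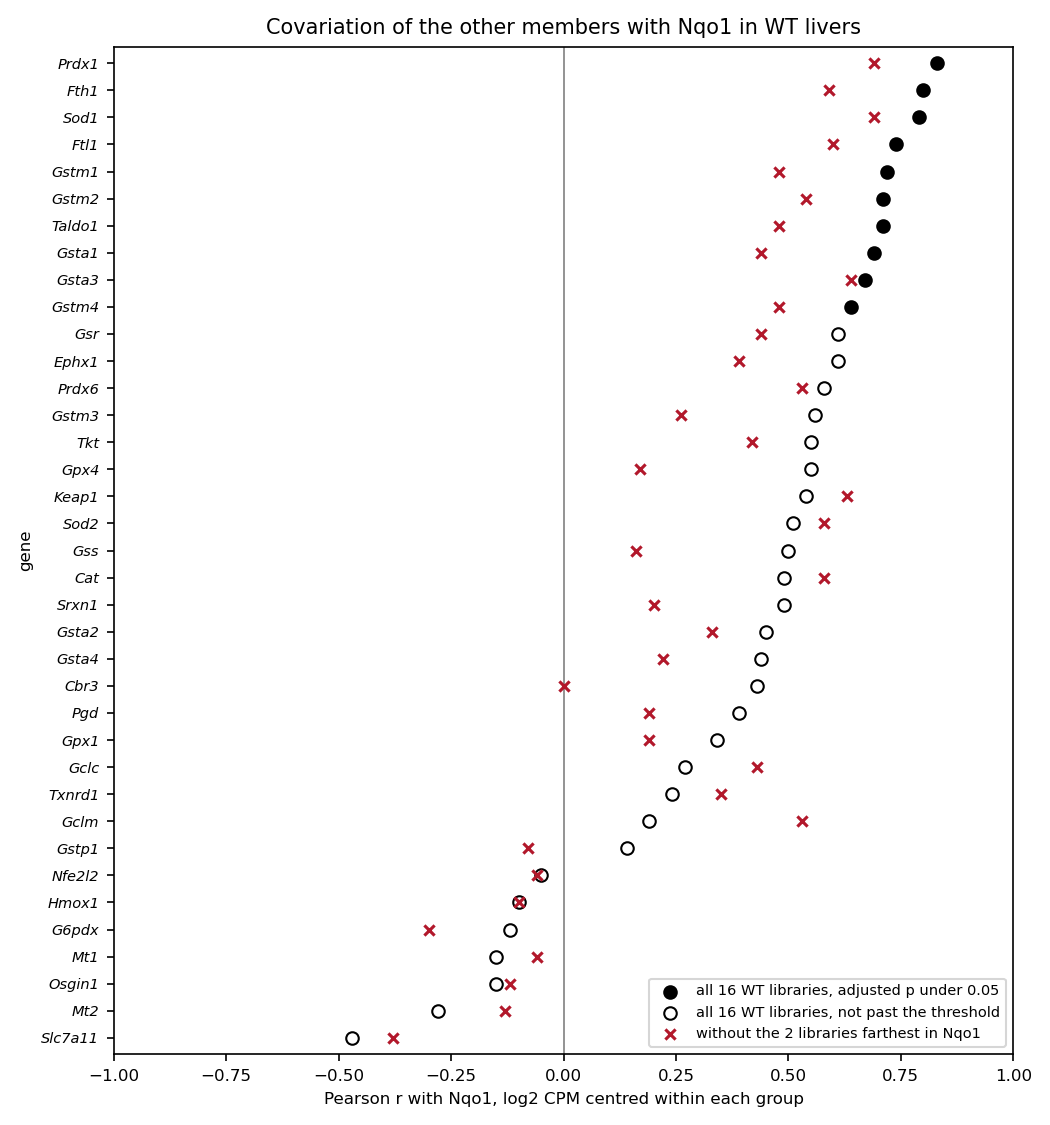
Pearson's r of each of the other 37 members with Nqo1 over the 16 WT libraries (circles, filled where the adjusted permutation p is under 0.05) and over 14 of them without the 2 farthest in Nqo1 (crosses). The 10 filled circles lie between 0.64 and 0.83, and their crosses between 0.44 and 0.69.

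The plot of covariation with Nqo1 shows values lower for these 10 once WT NASH-AA replicate 1 and WT NASH replicate 1, the 2 libraries farthest in Nqo1, were left out. For Prdx1 and Sod1 r was then 0.69, for Gsta3 0.64 and for Gsta1 0.44, so the size of r rests in part on those libraries. Within library numbers 1 to 16 (7 WT libraries) r was 0.94 for Prdx1, 0.98 for Gstm1 and 0.92 for Gsta1, and within 17 to 32 (9 WT libraries) it was 0.72, 0.51 and 0.54 in that order. Hmox1 (r = -0.10), Osgin1 (-0.15), G6pdx (-0.12), Mt2 (-0.28) and Nfe2l2 (-0.05) did not pass. For Hmox1 and G6pdx, which were lower in FAAH S268D as Nqo1 was, no relation to Nqo1 was detected among WT libraries.

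In FAAH S268D NASH no r is given, since its libraries fell into 2 sets of 4. The 8 FAAH S268D NASH-AA libraries were examined after the WT values were seen. In exact permutation tests over all 40320 orderings (two-sided), 1 of 37 relations passed for both r and rho. This was Gclc (r = 0.94, rho = 0.90, exact permutation p = 0.000397 and 0.00456, adjusted p = 0.0147 and 0.0338), for which r in WT was 0.27. Without the 2 libraries farthest in Nqo1 it was 0.93. Srxn1 (r = 0.82) and Cbr3 (0.86) missed for r, as they had in WT, with exact permutation adjusted p of 0.112 and 0.0852. Both passed for rho (0.90 each, exact permutation adjusted p = 0.0338). Taldo1 (r = 0.90, rho = 0.90) and Gpx4 (0.86 and 0.95) also passed for rho alone, with the same exact permutation adjusted p of 0.0338. Prdx1 and Sod1, with the highest and the third highest r in WT, stood at 0.47 and -0.06 (exact permutation adjusted p = 0.389 and 0.879). Whether a relation differed between the genotypes was not tested.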

How the data were processed

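The 32 whole-liver RNA samples came from a TRIzol extraction, and polyA libraries were prepared using Tecan's Universal Plus mRNA-seq kit, per the labels' protocols. Trim Galore 0.6.7, UMI-tools 1.1.2, STAR 2.7.10 and GRCm38 are named per the submitters' processing notes. How reads were counted, on which annotation and with which strand setting, is not given in the sources used here. The table the authors deposited holds estimated counts for 55487 genes, not scaled between libraries. Part of its cells had been altered as text. Of 1775584 cells, whole numbers made up 87.9%, and 11.4% had been split by grouping marks and were read as numbers with 3 decimals. The rest were decimals, clock times or fractions of a day and were turned back. Of the members' cells, 52.4% were not whole. There were 3700 cells (0.208%) with 2 possible originals, 5 of them in members, and the reading nearer the gene's median was used. Columns of other samples numbered 0. A count test was planned, but since the values were not clean counts limma-voom was used.

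Genes reaching the CPM of 10 counts in the median library in 8 libraries, with 15 counts in all, were kept, which left 14903 genes. Library sizes were scaled by the trimmed mean of M values (30% and 5% trimmed, factors 0.844 to 1.185). limma 3.58.1 in R 4.3.3 was fitted to all 4 groups together with no covariate and 7 contrasts, with Benjamini-Hochberg adjustment over all genes. The procedure was tested on simulated data. The members, lists and tests were chosen with earlier results of these data known. By the naming rule, members past the threshold have their group values given. So do 10 set members (Nfe2l2, Keap1, Nqo1, Gclc, Gclm, Hmox1, Txnrd1, Srxn1, Mt1 and Mt2). Other pathway genes are named where they passed in either averaged comparison, and not where they passed only within a diet or a genotype. Further library values were chosen after they were seen.

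Totals of 3851626 to 34370178 counts per library set the precision of the scarce members. Alternatives were other scalings, filters, cell readings, library weights, limma-trend, a replicate block, library number ranges, fits of 2 groups and leaving out each library. Promoter windows are from RefSeq on GRCm38.p6, and gene positions from GENCODE M21.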

Additional observations from a re-analysis of the deposited data

Results flagged for a closer look

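For each member and group of 8 libraries, the highest and the lowest library were compared with the nearest other library. In 15 of 152 such groups (9.87%) the gap took more than 0.526 of the group's range. The limit of 5% by chance holds for independent, normally distributed values. Here the values are CPM of genes that share libraries and partly varied together, so 9.87% does not measure an excess over chance. In WT NASH-AA, replicate 1 was far above its group for Nqo1 (23.5 CPM), Cbr3 (15.8 CPM), Gsta1 (127 CPM), Gstm1 (5883.3 CPM) and Gstm3 (770 CPM), and replicate 3 was far below it for Txnrd1 (127 CPM). In FAAH S268D NASH, replicate 3 was far above its group for Osgin1 (261 CPM) and Gstp1 (2824.8 CPM), replicate 8 for Gstm3 (911 CPM), and replicate 1 for Mt1 (129 CPM) and Mt2 (47.2 CPM). The last library also had the lowest total, 3851626 counts. In FAAH S268D NASH-AA, replicate 3 was far above its group for Pgd (111 CPM) and replicate 5 for Gstp1 (1873.6 CPM). In WT NASH, replicate 7 was far above its group for Mt1 (184 CPM) and Mt2 (66.2 CPM).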

How the results depend on the processing

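For genotype averaged over diets, 12 members passed, and 0 did among library numbers 17 to 32 alone. On NASH, 5 passed, against 2 with no filter, 0 among library numbers 17 to 32 and 0 when the 2 groups were fitted alone. On NASH-AA, 0 passed, against 1 with the replicate block, 1 with library range as a term, 6 with the 2 groups alone and 3 with sample quality weights. For diet averaged over genotypes, 5 passed, against 2 with no filter, 0 among library numbers 1 to 16 and 11 with quality weights. For diet in WT, 1 passed, against 3 with total counts, 2 with the groups alone, 9 with quality weights, and 0 with no filter, the replicate block, the range term, either range alone or limma-trend. For diet in FAAH S268D, 0 passed, against 5 with quality weights. Without 1 library, counts ran from 6 to 16 for genotype averaged, 0 to 8 on NASH, 0 to 1 on NASH-AA, 1 to 6 for diet averaged, 0 to 4 for diet in WT and 0 to 1 for diet in FAAH S268D. The interaction gave 0 under every alternative run. Among library numbers 17 to 32 alone, genotype on NASH changed sign for Gsr (0.14), Srxn1 (0.38), Cbr3 (0.42) and Gsta1 (0.54), and among 1 to 16 alone diet in FAAH S268D did so for G6pdx (0.01). Of 52 gene values followed, the other settings gave 509 with the same call, 72 weaker, 21 stronger and 5 reversed, and leaving out 1 library gave 1473, 177, 14 and 0. The causes were not tested. Fits of 1 range or 2 groups also hold fewer libraries.

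Replicate numbers mostly did not pair the libraries: 13 of 48 same-numbered pairs correlated over 0.1 (-0.383 to 0.332), and 5 of 32 libraries matched their own number best. Replicate number 1 stood apart, with its 6 pairs at 0.098 to 0.332 (median 0.173). The medians of the other numbers were -0.048 to 0.027. With the replicate block 8 members passed for genotype averaged, and Gsr, Cbr3, Osgin1 and Gsta1 had adjusted p of 0.0588, 0.0538, 0.0525 and 0.0602 in limma-voom. The block also ended the calls of Nfe2l2 for diet averaged (0.0595) and Gsta3 for diet in WT (0.067), and Hmox1 on NASH-AA passed with it (0.0355).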
